A study of Mus musculus with 12 samples.

Results

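Genes of cell adhesion were described in bulk samples of mouse CD4+ cells from the spleen, from culture and from the central nervous system (CNS). The CNS samples also held markers of other cells, as given below. The set held 36 genes, of which 17 encode integrin alpha chains, 8 integrin beta chains and 11 selectins, selectin ligands or other adhesion molecules, out of 30157 gene names on the array. A gene entered the set where the array's gene name equalled a listed symbol, and it was represented by its brightest probe, the one with the highest mean log2 signal over all arrays. In at least 1 group, 32 of the 36 genes had a probe well above background on every array, and these were tested among 18645 genes that met the same condition. Itga2, Itga8, Itgb6 and Itgb8 did not reach that level in any group and were not tested.

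RNA was hybridised to 12 one-colour arrays in 4 groups of 3. The naive group held splenic CD4+ T cells of the B6.2d2 strain, which carries a transgenic T cell receptor specific for MOG, the myelin oligodendrocyte glycoprotein. The culture group held such cells after differentiation in vitro into Th17 cells, the helper T cells named for interleukin-17. In the transfer group, cultured B6.2d2 Th17 cells had been given to lymphopenic Rag1-/- mice, which lack their own lymphocytes of the T and B lineages. CD4+ cells were then recovered from the CNS when experimental autoimmune encephalomyelitis (EAE), which models multiple sclerosis in mice, was at its peak. In the immunised group, C57BL/6 mice received the peptide of MOG residues 35 to 55, and CD4+ T cells were taken from the CNS at the peak of disease. The immunised mice had their own T cell receptors, B cells and other lymphocytes, so strain, receptor and route of disease differ together between both CNS groups. Age, sex, the purity of the isolated cells and the number of mice per sample were not given in the labels, and the series text speaks of 3 independent experiments.

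Integrins are surface receptors made of 1 alpha and 1 beta chain. They bind matrix proteins such as laminin, fibronectin and collagen, or surface molecules such as ICAM-1 and VCAM-1. Leukocytes leave the blood by rolling on selectins, then arresting through integrins of the beta-2 and alpha-4 families, and antibodies to alpha-4 integrin are used to treat multiple sclerosis because they hinder T cell entry into the brain.

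Between 57.0% and 64.8% of probes were well above background on an array, and 0 spots were saturated. All 15 core T cell markers were well above background on all arrays, and Cd3e, a chain of the T cell receptor complex, had mean log2 levels of 5.92, 5.49, 4.87 and 5.25 in naive, culture, transfer and immunised samples. The log2 level used throughout is the probe's processed signal on an array relative to the 75th percentile of that array. The summed relative signal of the 15 core T cell markers was 532 to 609, 419 to 520, 231 to 332 and 338 to 524 in the same order of groups. At an adjusted p under 0.05, 12 of them were lower and 0 higher in transfer than in naive cells, where 26.6% of all genes were lower. In transfer against culture 4 were lower and 0 higher, where 15.5% of all genes were lower. Markers of other cells were also present in the CNS samples. The summed relative signal of 21 macrophage and monocyte markers was 2.76 to 3.28 in naive, 11.6 to 34.9 in culture, 751 to 1182 in transfer and 587 to 1271 in immunised samples, and 8, 16, 21 and 21 of them were well above background on all 3 arrays of the group. Of 11 microglia markers, 6, 7, 11 and 11 reached that level, and P2ry12 had a mean of −0.52 in transfer and −0.33 in immunised samples, against 1 and 0 arrays above background in naive and cultured cells. The summed signal of these microglia markers was 82.8 to 127, 82.4 to 108, 139 to 164 and 127 to 167. The sum of 11 dendritic cell markers was 79.2 to 131, 33.3 to 121, 347 to 508 and 303 to 528 in the same order of groups, and that of 12 neutrophil markers was 113 to 228, 90.7 to 105, 98.1 to 263 and 556 to 699. In that order, sums were 1.23 to 2.26, 0.423 to 2.52, 0.446 to 0.902 and 1.42 to 1.55 for 8 B cell markers, 0.71 to 2.38, 0.812 to 7.93, 0.59 to 4.28 and 13.3 to 22 for 8 of mast cells and basophils, 6.80 to 10.8, 2.64 to 238, 5.75 to 39.6 and 10.2 to 15.5 for 8 of CD8 and NK cells, and 41.5 to 100.2, 24.2 to 28.4, 11.4 to 23 and 16.9 to 33.0 for 12 neural and glial markers. These sums weigh bright probes most, and the number of markers detected did not always follow them. Of the 12 neural and glial markers, 7, 6, 10 and 10 were well above background on all 3 arrays of the group. Gfap among them was above background on 0, 0, 3 and 3 arrays. Of the 12 neutrophil markers, 7, 9, 11 and 12 were well above background on all 3 arrays of the group. In these bulk samples, fewer cells of a type and less RNA per cell cannot be told apart, and the part of other cells in the adhesion results below was not tested. Each group held 1 fixed position on each of 3 slides, so position and group cannot be told apart, and the replicate number marks the slide. Culture replicate 3 lay apart from the other culture arrays for several genes, among them Itga4, Itga7, Itgal and Itgb3. Its sum of CD8 and NK cell markers was 238, against 47.6 and 2.64 in culture replicates 1 and 2. Its macrophage and monocyte sum was 11.6, against 29.2 and 34.9.

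All 32 tested genes were called, at an adjusted p under 0.05, in at least 1 of the 6 pairs of groups, where 71.6% of all genes tested were called in at least 1 pair, and 31 of the 32 changed at least 2-fold. In cultured Th17 cells, 11 genes were higher and 9 lower than in naive cells, or 20 of 32 where 40.1% of all genes tested were called, 19.7% of them higher and 20.4% lower. In transferred cells from the CNS, 12 were higher and 6 lower than in culture, or 18 of 32 against 28.3% of all genes, of which 12.8% were higher and 15.5% lower. With arrays scaled to their median in place of the 75th percentile, that split was 11 higher and 9 lower. Over all genes it was 1961 higher and 2944 lower, against 2390 and 2887 with the 75th percentile. Median scaling moved the median of all genes by 0.11 for culture against naive and by −0.12 for transfer against culture. Immunised and transferred cells differed in 4 of 32 genes, all higher in the immunised group, against 3.22% of all genes called and 1.84% called higher. Against naive cells, 15 genes were higher and 11 lower in the transfer group, with 47.8% of all genes called (21.1% higher, 26.6% lower), and 16 were higher and 6 lower in the immunised group, with 48.5% (20.6% higher, 27.9% lower). Against culture, 15 were higher and 3 lower in the immunised group, with 31.5% of all genes called (13.7% higher, 17.8% lower). The median log2 difference of the 32 genes was 0.18 for culture against naive, 0.00 for transfer against culture and 0.68 for immunised against transfer, where the medians of all genes were −0.08, −0.10 and −0.04. Without culture replicate 3, the members called numbered 18, 17, 7, 27, 23 and 15 in the order in which the comparisons are given here. Over all genes, that omission raised the number called from 600 to 1289 for immunised against transfer. It also raised it from 8903 to 9941 for transfer and from 9038 to 10311 for immunised against naive.

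**Figure D1:**
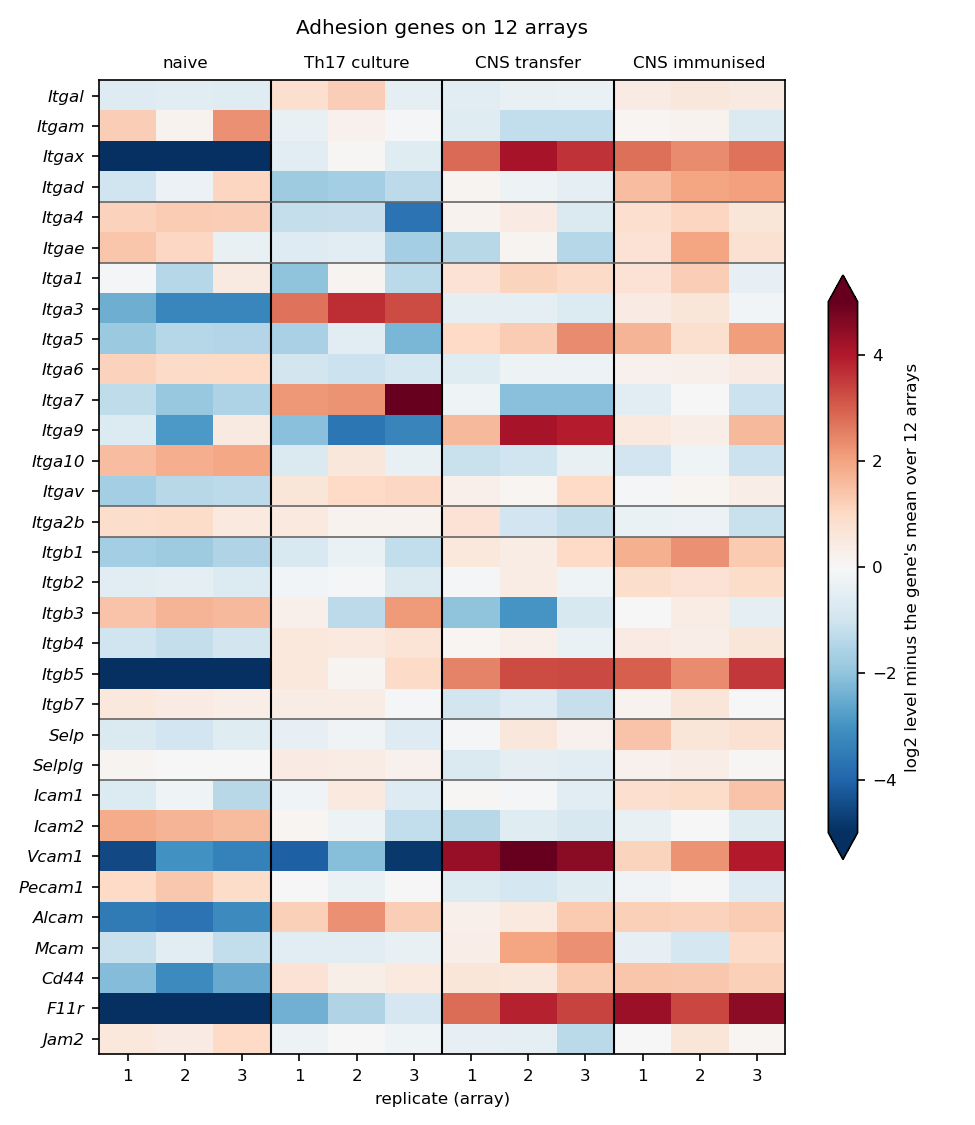
Heat map of the 32 tested adhesion genes (rows, grouped by role) on 12 arrays (columns, 3 replicates in each of 4 groups). Colour gives the log2 level minus the gene's mean over all arrays, limited to 5 in each direction; Itgax, Itgb5, F11r and Vcam1 are low on all naive arrays and high on all transfer arrays, and Itga3 and Itga7 are highest in culture.

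The tested genes differed in where they were highest. By group mean, 10 genes were highest in naive cells, 7 in culture, 7 in the transfer group and 8 in the immunised group, while 16 were lowest in naive cells. In naive cells 22 of the 32 were well above background on all 3 arrays, and in the other groups 28, 29 and 30. Of 105 called differences among the 31 genes with a 2-fold change, 74 kept their call and direction under every other setting tried on them apart from the choice of probe without a run, and 26 were lost when 1 of the 12 arrays was left out. Many of the genes were faint in some group, and how faint signals are treated sets the size of their differences. With normexp background correction, a model of noise plus signal used here with an offset of 50 that pulls faint signals together, 42 of the 105 differences moved by more than 1.5 times, and values so obtained are given beside the genes concerned. Bounds written as "at least" hold for the processed signal and not for that correction. A gene is said to have risen or fallen where its difference was called, log2 differences carry the standard error (SE) of the fit, levels carry the SD of 3 arrays, and values on single arrays are given in the order of replicates 1, 2 and 3.

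**Figure D2:**
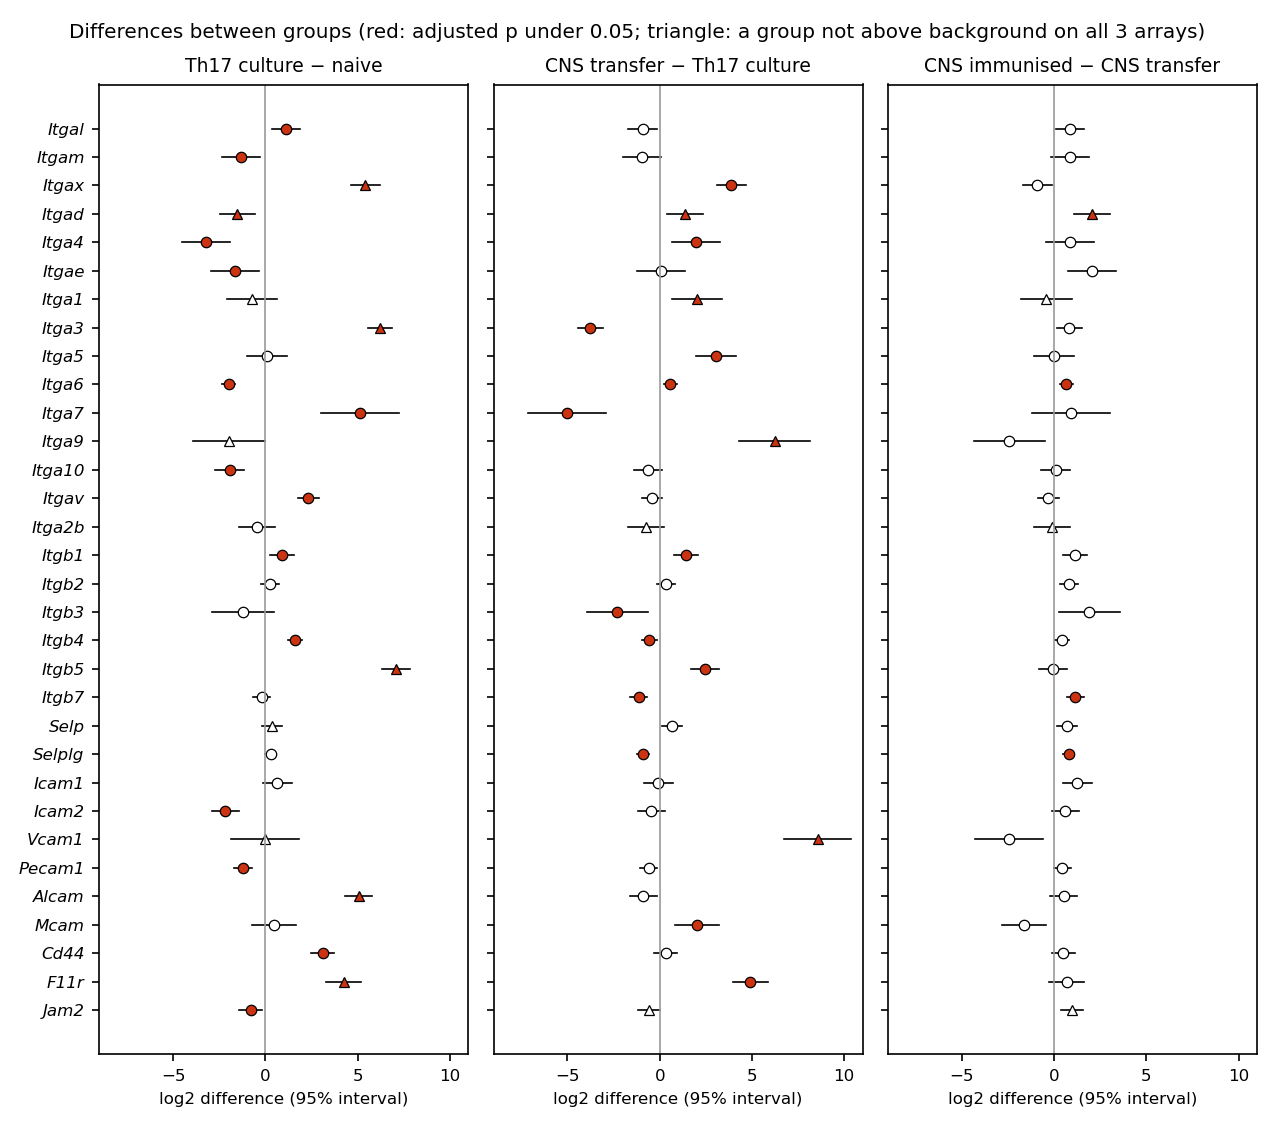
Log2 differences of the 32 tested genes (rows) in 3 comparisons (panels): culture minus naive, transfer minus culture and immunised minus transfer, each with its 95% interval. Red marks have an adjusted p under 0.05, which holds for 20, 18 and 4 genes. Triangles mark differences in which a group was not well above background on all 3 arrays, which holds for 10, 6 and 4 genes: they are fitted values and no measured sizes.

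The leukocyte integrins share the beta-2 chain, encoded by Itgb2, and their alpha chains Itgal, Itgam, Itgax and Itgad were all measured by probes on mm9 chromosome 7. Itgb2 had levels of 3.08, 3.15 and 2.94 in naive cells, 3.51, 3.56 and 2.90 in culture, 3.58, 4.01 and 3.41 in the transfer group and 4.51, 4.35 and 4.53 in the immunised group. The immunised arrays lay above all others. Itgb2 rose by 1.41 ± 0.21 from naive to immunised (adjusted p = 0.000432) and by 1.15 ± 0.21 from culture to immunised (adjusted p = 0.00262). From naive to transfer it was called at 0.61 ± 0.21 (adjusted p = 0.0371), a call that was lost without any 1 naive array, transfer replicate 1 or 2 or immunised replicate 1 (adjusted p of 0.0537 to 0.146).

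Itgax encodes CD11c, which is used as a marker of dendritic cells and is also found on macrophages, microglia and some activated T cells. Its levels were −6.10, −6.83 and −5.84 in naive cells (0 of 3 arrays above background), −1.04, −0.42 and −1.08 in culture, 2.34, 3.66 and 3.12 in the transfer group and 2.29, 1.87 and 2.24 in the immunised group. Culture lay above all naive arrays, and both CNS groups lay above culture. Itgax rose at least 26.4-fold from naive to culture (adjusted p = 2.39e-06) and by a further 3.88 ± 0.36 from culture to transfer (adjusted p = 3.89e-05). Against naive cells it was at least 389-fold higher in the transfer group and at least 208-fold higher in the immunised group. After normexp correction the log2 differences from naive cells were 2.65 in culture (adjusted p = 5.26e-05) and 5.44 in the immunised group. The difference of immunised from transfer, −0.90 ± 0.36, was not called (adjusted p = 0.193). The rise in culture came with 16 of 21 macrophage and monocyte markers well above background and a mean Csf1r level of 0.83, against 0.01 in naive cells and 6.80 in the transfer group. Csf1r encodes the growth factor receptor of macrophages.

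Itgal encodes the alpha chain of LFA-1, the receptor of ICAM-1 on T cells. Its levels were 1.31, 1.42 and 1.37 in naive cells, 2.80, 3.19 and 1.46 in culture, 1.44, 1.60 and 1.63 in the transfer group and 2.36, 2.53 and 2.40 in the immunised group. Culture replicate 3 was close to the naive arrays and the other culture arrays were higher. The difference of 1.12 ± 0.35 from naive to culture was called (adjusted p = 0.0271) and lost without any 1 naive array or culture replicate 1 or 2 (adjusted p of 0.0549 to 0.0896). That of 1.06 ± 0.35 from naive to immunised (adjusted p = 0.0282) was lost without any 1 array of either group (adjusted p of 0.0559 to 0.0726). One of the other Itgal probes, at transcript base 4428, did not follow, with differences of −0.52 and −0.65, and with the mean of all probes both calls were lost (0.51, adjusted p = 0.229, and 0.46, adjusted p = 0.252).

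Itgad encodes an alpha chain of leukocytes and was faint. It was well above background on 1 naive array, 0 culture arrays, 0 transfer arrays and 3 immunised arrays, at −4.77, −4.33 and −4.27 in the last group. Itgad was also called between culture and naive cells and between transfer and culture, where at most 1 array of a group was above background and no fold is given. It was at least 2.48-fold higher in the immunised group than in culture (adjusted p = 0.00025) and at least 1.93-fold higher than in naive cells (adjusted p = 0.0045). After normexp correction the first of these log2 differences was 0.52 (adjusted p = 0.037), and the second lost its call (0.20, adjusted p = 0.343).

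Itgam encodes CD11b, the alpha chain that marks myeloid cells, and its probes disagreed. Its brightest probe, at transcript base 4431, holds a run of 20 alternating C and A bases, shown in capitals below. The probe for Mcam (CD146), an adhesion molecule of endothelial cells and of some Th17 cells, likewise holds a run of 20 alternating G and T bases, here from probe base 16 on. Beside each stand 30 bases of another probe of the same gene, written 5′ to 3′ as in the array files, because the runs separate the probes that disagree.

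Itgam probe at transcript base 4431, on chr7:135261755-135261814 (mm9, plus strand): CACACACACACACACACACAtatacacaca
Itgam probe at transcript base 3410, on chr7:135260275-135260334 (mm9, plus strand): aagttcacaatcctgtaccactcattgtgg
Itgam probe at transcript base 270, on chr7:135212140-135212199 (mm9, plus strand): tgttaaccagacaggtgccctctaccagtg
Mcam probe at transcript base 2746, on chr9:43950664-43950723 (mm9, plus strand): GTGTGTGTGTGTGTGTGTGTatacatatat
Mcam probe at transcript base 1858, on chr9:43949385-43949444 (mm9, plus strand): atttgtagttgaagttaagtcagataagct

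The Itgam probe with the run had levels of 5.55, 4.48 and 6.58 in naive cells, 3.94, 4.54 and 4.23 in culture, 3.72, 3.06 and 3.08 in the transfer group and 4.40, 4.48 and 3.60 in the immunised group. Its differences from naive cells were −1.30 ± 0.46 in culture, −2.25 ± 0.46 in the transfer group (adjusted p = 0.00251) and −1.38 ± 0.46 in the immunised group. The first was lost without 10 of the 12 arrays left out in turn (adjusted p of 0.0504 to 0.16), and the third without naive replicate 1 or 3 or immunised replicate 3 (adjusted p of 0.0681 to 0.116). The other probes showed the opposite direction. With the probe at base 3410, Itgam was 4.50 higher in the transfer group (adjusted p = 1.11e-05) and 5.18 higher in the immunised group than in naive cells, and 0.69 higher in culture (adjusted p = 0.195). The probe at base 270 was 1.29 higher in the transfer group and 1.43 higher in the immunised group.

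Such runs were rare on the array. Of 39405 probes, 214 (0.543%) held a dinucleotide run of 12 or more bases, and 95.3% of these were well above background on all 12 arrays, against 48.7% of the others. Of 52 other probes with a run of A and C, 50 were lower in the transfer group than in naive cells, with a median of −3.24, and 52 were lower in the immunised group, with a median of −2.28. Of 108 other probes with a run of G and T, 2 were lower in the transfer group than in naive cells and the median was 2.39, and all 108 were lower in the immunised than in the transfer group, with a median of −1.54. The representative probes of Itgam and Mcam moved the same way as the probes of their own run type, and what these probes bound was not tested.

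**Figure D3:**
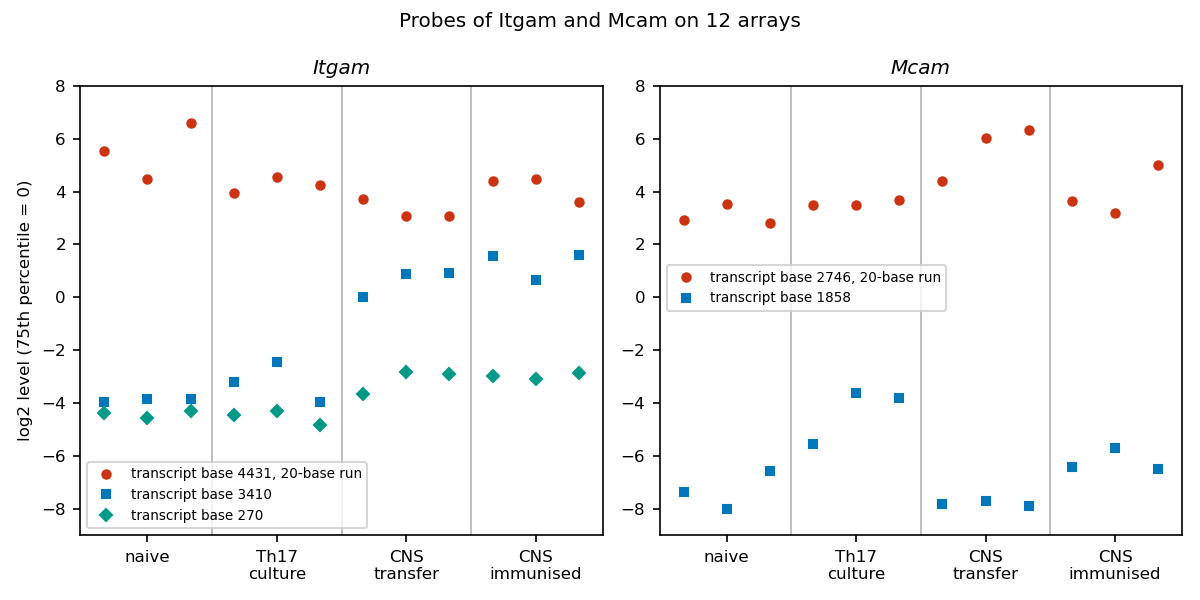
Log2 level of each probe of Itgam (left, 3 probes) and Mcam (right, 2 probes) on 12 arrays, arranged by group. The Itgam probe with the 20-base run (circles) has its highest mean in naive cells while the probe at base 3410 (squares) lies above 0 on all CNS arrays and at −2.45 or below on the others; levels of different probes are not comparable, and only the pattern of each probe over the groups is shown.

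Mcam itself was therefore read from both probes. The probe with the run had levels of 2.92, 3.53 and 2.81 in naive cells, 3.49, 3.49 and 3.69 in culture, 4.39, 6.03 and 6.35 in the transfer group and 3.64, 3.17 and 5.01 in the immunised group. With it, Mcam was 2.04 ± 0.54 higher in transfer than in culture (adjusted p = 0.0178), a call lost without transfer replicate 2 or 3 (adjusted p = 0.063 and 0.0704), and 2.50 ± 0.54 higher in transfer than in naive cells (adjusted p = 0.00328). The probe at base 1858 was well above background on 3 culture arrays and on 0 arrays of the other groups, and with it Mcam was at least 2.42-fold lower in transfer than in culture (adjusted p = 0.000614). With the same probe, Mcam was at least 2.35-fold higher in culture than in naive cells (adjusted p = 0.000873). It was at least 2.26-fold lower in immunised than in cultured cells (adjusted p = 0.0166). No fold is given between transfer and naive cells, which were both not above background with that probe.

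Among the promoters in the RefSeq table (GRCm38.p6), 23 of the 36 genes were found, with 25 start sites. Itgax and Itgb5, which were faint in naive cells and bright in both CNS groups, and Itgam, a neighbour of Itgax, are shown over the 200 bases before their start site, on the gene's strand, 5′ to 3′. Capitals mark 3 motifs that were searched as letters on both strands: GAGGAA, the core bound by the myeloid factor PU.1, TGTGGT, bound by Runx factors, and TGANTCA, bound by AP-1.

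Itgax, chr7:128129350-128129549 (plus strand): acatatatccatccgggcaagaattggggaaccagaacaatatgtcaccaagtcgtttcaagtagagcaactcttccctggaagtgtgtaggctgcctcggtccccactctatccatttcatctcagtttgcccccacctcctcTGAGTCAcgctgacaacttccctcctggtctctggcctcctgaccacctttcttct
Itgam, chr7:128062440-128062639 (plus strand): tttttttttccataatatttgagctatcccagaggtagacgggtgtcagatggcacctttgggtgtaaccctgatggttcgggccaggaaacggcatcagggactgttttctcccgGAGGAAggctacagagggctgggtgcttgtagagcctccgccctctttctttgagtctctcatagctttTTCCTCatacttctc
Itgb5, chr16:33829465-33829664 (plus strand): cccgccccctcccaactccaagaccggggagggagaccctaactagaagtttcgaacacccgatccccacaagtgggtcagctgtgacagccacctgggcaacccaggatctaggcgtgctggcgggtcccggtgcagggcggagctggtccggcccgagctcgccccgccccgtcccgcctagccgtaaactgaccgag

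Over the whole promoter window of the table, GAGGAA was found in 28.3% of all 32851 promoters and in 12 of the 25 promoters of the set, TGTGGT in 16.8% and in 3, and TGANTCA in 7.81% and in 5. These counts describe letters and not binding. In the bases shown, Itgax held the AP-1 letters, Itgam held GAGGAA on both strands, and Itgb5 held none of the 3 motifs.

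The alpha-4 chain, encoded by Itga4, pairs with beta-1 to form VLA-4, the receptor of VCAM-1, or with beta-7 to form a gut homing receptor. Itga4 had levels of 3.56, 3.67 and 3.62 in naive cells, 1.20, 1.26 and −1.31 in culture, 2.58, 2.81 and 1.69 in the transfer group and 3.25, 3.46 and 2.99 in the immunised group. All culture arrays lay below all others. Itga4 fell by 3.23 ± 0.58 from naive to culture (adjusted p = 0.00146), and by 2.39 without culture replicate 3. It was 2.85 ± 0.58 higher in immunised than in cultured cells (adjusted p = 0.00425; 2.0 without culture replicate 3). The rise of 1.97 ± 0.58 from culture to transfer (adjusted p = 0.0282) was 1.13 without culture replicate 3 (adjusted p = 0.019) and was lost without transfer replicate 1 or 2 (adjusted p = 0.0748 and 0.0914). A second Itga4 probe, above background on 2 culture arrays, was at least 6.31-fold lower in culture than in naive cells (adjusted p = 0.000662) and at least 3.25-fold higher in transfer than in culture (adjusted p = 0.0126).

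Itgb7 encodes the beta-7 chain and was lowest in the transfer group, at 4.68, 4.96 and 4.47. It was at 6.13, 6.01 and 5.95 in naive cells, 5.98, 5.98 and 5.55 in culture and 5.79, 6.23 and 5.58 in the immunised group. Itgb7 fell by 1.13 ± 0.21 from culture to transfer (adjusted p = 0.00294) and by 1.32 ± 0.21 from naive to transfer (adjusted p = 0.000538). The median log2 differences of the 15 core T cell markers were −0.62 and −1.23 in these comparisons. The part of the T cell share in the falls of Itgb7 and of other members in the transfer group was not tested. Itgae, whose product CD103 pairs with beta-7 and binds E-cadherin, had means of −2.50 ± 0.95, −4.15 ± 0.63, −4.08 ± 0.90 and −2.04 ± 0.71 (SD, n = 3) in naive, culture, transfer and immunised samples. It was 2.12 ± 0.59 higher in immunised than in cultured cells (adjusted p = 0.0201), a call lost without culture replicate 3 or immunised replicate 2 (adjusted p = 0.0654 and 0.0743) and 1.10 after normexp correction (adjusted p = 0.0252). Its differences of −1.65 and −1.58 from naive cells in culture and transfer were called at adjusted p = 0.0452 and 0.0468 and were lost without 9 and 8 of the 12 arrays, left out in turn (adjusted p of 0.051 to 0.145 and of 0.0545 to 0.154). After normexp correction they were −0.93 (adjusted p = 0.0451) and −0.85, the latter no longer called (adjusted p = 0.055).

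The integrin chains of laminin receptors divided into those that rose and those that fell in culture. Itga3, the alpha-3 chain, had levels of −5.15, −5.98 and −5.96 in naive cells, above background on 0 of 3 arrays, and of 0.02, 0.97 and 0.56 in culture. In the transfer group it was at −3.18, −3.14 and −3.39 and in the immunised group at −2.30, −2.09 and −2.84. The 4 groups did not overlap. Itga3 rose at least 67.4-fold from naive to culture (adjusted p = 4.87e-07), fell by 3.75 ± 0.31 from culture to transfer (adjusted p = 2.07e-05) and was still at least 5.0-fold higher in transfer and at least 8.88-fold higher in immunised samples than in naive cells. After normexp correction its log2 differences from naive cells were 3.81 in culture, 0.88 in transfer (adjusted p = 0.00873) and 1.31 in immunised samples.

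Itga7, the alpha-7 chain best known from muscle, was at −1.36, −1.97 and −1.59 in naive cells and at 2.08, 2.19 and 6.19 in culture. It was at −0.28, −2.15 and −2.15 in the transfer group and −0.59, −0.04 and −1.16 in the immunised group. Culture replicate 3 was the highest array by far, and the other culture arrays also exceeded all arrays of the other groups. Itga7 rose by 5.13 ± 0.95 from naive to culture (adjusted p = 0.00177) and fell by 5.02 ± 0.95 from culture to transfer (adjusted p = 0.00332). Without culture replicate 3 these differences were 3.78 and −3.67. In the transfer group it differed from naive cells by 0.11 ± 0.95 (adjusted p = 0.936).

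Itga6, the alpha-6 chain of naive and memory T cells, went the other way, from 3.93, 3.71 and 3.78 in naive cells to 1.87, 1.69 and 1.90 in culture. It was at 2.14, 2.52 and 2.51 in the transfer group and 2.98, 3.0 and 3.19 in the immunised group. No 2 groups overlapped. Itga6 fell by 1.99 ± 0.16 in culture (adjusted p = 7.91e-06) and was 1.24 ± 0.16 higher in immunised than in cultured cells (adjusted p = 0.000245). The rise from culture to transfer of 0.57 ± 0.16 (adjusted p = 0.0207) was lost without culture replicate 2 or transfer replicate 2 or 3 (adjusted p of 0.0615 to 0.0756) and with median scaling (0.46, adjusted p = 0.18), and it was 1.05 with the mean of all probes. Itgb4, the beta-4 chain that pairs with alpha-6, rose by 1.61 ± 0.18 in culture (adjusted p = 6.65e-05), from −4.84 ± 0.13 to −3.23 ± 0.12 (SD, n = 3), and stayed 1.05 ± 0.18 and 1.49 ± 0.18 above naive cells in the transfer and immunised groups. After normexp correction these 3 differences were 0.61 (adjusted p = 0.00494), 0.42 (adjusted p = 0.0292) and 0.52 (adjusted p = 0.00985). Its difference of −0.56 from culture to transfer (adjusted p = 0.0394) was lost without 9 of the 12 arrays, left out in turn (adjusted p of 0.0507 to 0.141), and after normexp correction (−0.19, adjusted p = 0.348).

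Chains of fibronectin and vitronectin receptors come next. Itgb1, the beta-1 chain shared by many matrix receptors, was at −0.58, −0.65 and −0.35 in naive cells, 0.37, 0.81 and −0.09 in culture, 1.68, 1.52 and 2.13 in the transfer group and 2.92, 3.41 and 2.44 in the immunised group. The groups stood in that order without overlap. It rose by 1.41 ± 0.29 from culture to transfer (adjusted p = 0.00514) and by 3.45 ± 0.29 from naive to immunised (adjusted p = 8.84e-06), and its second probe gave 1.57 and 3.55. The step of 0.89 ± 0.29 from naive to culture (adjusted p = 0.0325) was lost without any 1 naive array or culture replicate 1 or 2 (adjusted p of 0.0519 to 0.111).

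Itga5 encodes the alpha-5 chain, which with beta-1 is the main fibronectin receptor. It was at −4.65, −4.19 and −4.25 in naive cells and −4.41, −3.35 and −5.05 in culture, and these groups overlapped. In the transfer group it was at −1.77, −1.51 and −0.42 and in the immunised group at −1.07, −1.97 and −0.70, which also overlapped. Itga5 rose by 3.04 ± 0.48 from culture to transfer (adjusted p = 0.00118; 1.94 after normexp correction, adjusted p = 0.00147) and differed by 0.09 ± 0.48 between culture and naive cells (adjusted p = 0.9), with a 95% interval from −0.98 to 1.16.

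Itgb5, the beta-5 chain of a vitronectin receptor, was well above background on 2 of 3 naive arrays, at −5.20, −5.58 and −5.05. Its levels were 1.77, 1.40 and 2.19 in culture, 3.71, 4.51 and 4.54 in the transfer group and 4.22, 3.60 and 4.77 in the immunised group. The CNS groups overlapped each other and lay above culture. Itgb5 rose at least 133-fold from naive to culture (adjusted p = 4.55e-07), by 2.46 ± 0.34 from culture to transfer (adjusted p = 0.000496), and was at least 733-fold and at least 705-fold higher in transfer and immunised samples than in naive cells. Macrophages and microglia also express Itgb5. The macrophage and monocyte sum given above was higher in culture than in naive cells and higher again in both CNS groups, whereas the microglia sum in culture lay within or just below the naive range and was higher in the transfer group. Their part in the Itgb5 differences was not tested.

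Itgav, the alpha-v chain that pairs with beta-5 and beta-3, was at −2.72, −2.39 and −2.30 in naive cells and −0.41, −0.03 and 0.02 in culture. It was at −0.75, −0.93 and 0.01 in the transfer group and −1.05, −0.90 and −0.67 in the immunised group, all above naive cells. Itgav rose by 2.33 ± 0.25 in culture (adjusted p = 5.6e-05), and was 1.91 ± 0.25 and 1.60 ± 0.25 above naive cells in the CNS groups. Its difference of −0.73 between immunised and cultured cells (adjusted p = 0.0481) was lost without 9 of the 12 arrays, left out in turn (adjusted p of 0.052 to 0.146). Itgb3, the beta-3 chain of platelets, was at 4.08, 4.36 and 4.29 in naive cells, 2.94, 1.35 and 4.81 in culture, 0.65, −0.28 and 1.86 in the transfer group and 2.70, 3.02 and 2.23 in the immunised group. Culture spanned the naive values, and 1 culture array lay within the range of the transfer arrays. Itgb3 fell by 3.50 ± 0.75 from naive to transfer (adjusted p = 0.00323), while its second probe differed by −2.01. The difference of −2.29 from culture to transfer (adjusted p = 0.0432) was lost without 10 of the 12 arrays (adjusted p of 0.0555 to 0.148), and with the mean of all probes (−1.52, adjusted p = 0.123), and it was −1.40 without culture replicate 3.

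Itga9 and Itga1 were brightest in the CNS groups. Itga9, whose product binds osteopontin and VCAM-1, was well above background on 1 naive array and on 0 culture arrays. Its levels were −2.90, −0.40 and −0.58 in the transfer group and −4.02, −4.20 and −2.91 in the immunised group. It was at least 22.2-fold higher in transfer than in culture (adjusted p = 0.000565), at least 13.2-fold higher in transfer than in naive cells and at least 4.15-fold higher in immunised than in cultured cells. After normexp correction the log2 differences were 2.68 and 2.22 for the first and second of these, and the last lost its call (0.93, adjusted p = 0.148). Itga1, the alpha chain of a collagen receptor, had means between −5.64 and −3.62, with 1 culture array above background. It was at least 3.19-fold higher in transfer than in culture (adjusted p = 0.0328), a call lost after normexp correction (0.68, adjusted p = 0.0862) and without culture replicate 1 or 3 or any 1 transfer array (adjusted p of 0.0588 to 0.111). With its other probe, Itga1 was at least 4.47-fold higher in transfer (adjusted p = 0.00041) and at least 5.89-fold higher in immunised samples (adjusted p = 0.000248) than in naive cells, where that probe was above background on 0 arrays.

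Itga10 and Itga2b were highest in naive cells. Itga10, the alpha-10 collagen receptor chain, was at −0.44, −0.17 and −0.06 in naive cells and between −3.09 and −1.43 on all other arrays. It fell by 1.94 ± 0.35 in culture (adjusted p = 0.00145), and was lower than naive by 2.59 in transfer and 2.50 in immunised samples. Its second probe differed by −1.80, −2.55 and −2.57. Itga2b, the alpha-IIb chain of platelets, was near background throughout, between −6.43 and −4.31. It was at least 1.71-fold lower in transfer (adjusted p = 0.0384), with 1 array above background, and at least 2.04-fold lower in immunised samples (adjusted p = 0.0274), with 0, than in naive cells. The calls were lost without any 1 of 6 arrays for the first, namely the naive arrays, transfer replicates 2 and 3 and immunised replicate 1 (adjusted p of 0.0503 to 0.147), and without naive replicate 1 or 2 or immunised replicate 3 for the second (adjusted p of 0.0712 to 0.107). After normexp correction the first was lost (−0.27, adjusted p = 0.104) and the second was −0.57 (adjusted p = 0.00326). The sum of 11 platelet and megakaryocyte markers was 0.325 to 0.55 in naive, 0.613 to 0.71 in culture, 6.37 to 57.2 in transfer and 1.80 to 5.46 in immunised samples, of which 4, 4, 5 and 5 were well above background on all 3 arrays, and its part in Itga2b and Itgb3 was not tested.

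**Figure D4:**
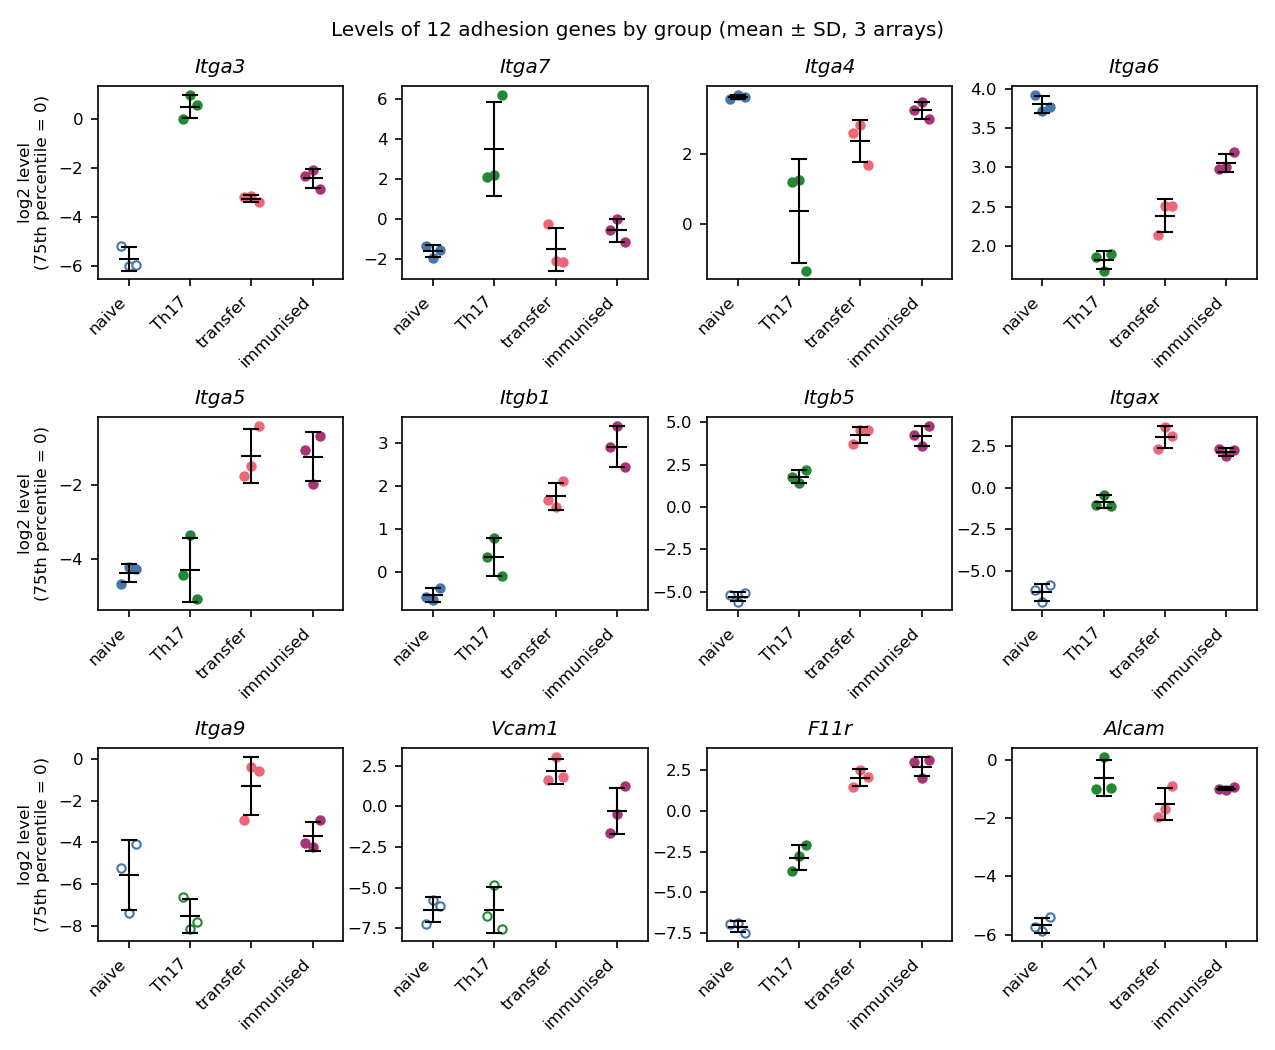
Log2 level of 12 adhesion genes (panels, each with its own axis) in the 4 groups, with 1 point per array and the mean and SD of 3 arrays; open points mark groups in which the probe was not well above background on all 3 arrays. Itga3 and Itga7 peak in culture, Itga4 and Itga6 are lowest there, and Itga5, Itgb1, Itgb5, Itgax, Vcam1 and F11r are higher in both CNS groups than in naive cells.

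Selplg encodes PSGL-1, the selectin ligand on which T cells roll, and Selp encodes P-selectin of platelets and endothelium. Selplg was at 4.71, 4.59 and 4.60 in naive cells, 4.98, 4.94 and 4.81 in culture, 3.87, 4.16 and 4.0 in the transfer group and 4.81, 4.93 and 4.66 in the immunised group. The transfer arrays lay below all others. Selplg fell by 0.90 ± 0.14 from culture to transfer (adjusted p = 0.00116), and its second probe by 1.07. Selp was faint, at −5.15, −5.41 and −5.05 in naive cells, with 2 of 3 arrays above background, and at −3.02, −3.85 and −3.66 in the immunised group. It was at least 3.24-fold higher in immunised than in naive cells (adjusted p = 0.000335) and at least 2.02-fold higher in transfer than in naive cells (adjusted p = 0.00665), the latter lost after normexp correction (0.32, adjusted p = 0.132) and the former 0.53 with it (adjusted p = 0.0181).

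Vcam1 encodes a ligand of alpha-4 integrins on inflamed endothelium. It was at −7.23, −5.75 and −6.11 in naive cells and −6.79, −4.83 and −7.54 in culture, above background on 0 and 1 arrays. It was at 1.64, 3.06 and 1.81 in the transfer group and −1.61, −0.47 and 1.25 in the immunised group. Vcam1 was at least 195-fold higher in transfer than in culture (adjusted p = 5.28e-05) and at least 35.6-fold higher in immunised than in cultured cells (adjusted p = 0.000371), and a second probe gave at least 11.1-fold for transfer against culture (adjusted p = 0.000167). After normexp correction the log2 differences of both CNS groups from culture were 5.55 and 3.23. The sum of 14 endothelial and mural markers was 5.09 to 6.49 in naive, 7.99 to 10.3 in culture, 11.8 to 17.0 in transfer and 7.93 to 10.6 in immunised samples, and 5, 3, 4 and 5 of these markers were well above background on all 3 arrays of the group. The macrophage and microglia sums given above were higher in both CNS groups than in culture, and the part of these cells in the Vcam1 differences was not tested.

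Icam1 and Icam2 encode ligands of LFA-1 and moved in opposite directions between naive and immunised samples. Icam1 was not called in culture or transfer against naive cells. Icam1 was at −1.38, −0.91 and −2.10 in naive cells, −0.88, −0.22 and −1.35 in culture, −0.66, −0.76 and −1.25 in the transfer group and 0.13, 0.23 and 0.73 in the immunised group. The immunised arrays lay above all others, and Icam1 rose by 1.82 ± 0.36 from naive to immunised (adjusted p = 0.00194). The difference of 1.18 from culture (adjusted p = 0.0292) was lost without culture replicate 1 or 3 or any 1 immunised array (adjusted p of 0.0503 to 0.106). Icam2 was at 5.09, 4.93 and 4.82 in naive cells and between 1.83 and 3.31 on the other arrays. It fell by 2.19 ± 0.33 in culture (adjusted p = 0.000498), and was lower than naive by 2.65 in transfer and 2.04 in immunised samples. Pecam1 (CD31), an adhesion molecule of endothelium and naive T cells, was at 0.01, 0.38 and −0.06 in naive cells and between −1.86 and −0.96 on the other arrays. Pecam1 fell by 1.21 ± 0.21 in culture (adjusted p = 0.00113), and was lower than naive by 1.81 in transfer and 1.36 in immunised samples.

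Cd44, the hyaluronan receptor that marks antigen-experienced T cells, rose in culture and stayed high. It was at −0.21, −1.23 and −0.57 in naive cells, 2.65, 2.22 and 2.43 in culture, 2.53, 2.50 and 3.23 in the transfer group and 3.31, 3.28 and 3.15 in the immunised group. No array of the other groups reached down to the naive values. Cd44 rose by 3.1 ± 0.28 in culture (adjusted p = 1.72e-05; 1.69 with the mean of all probes, adjusted p = 0.00506) and differed by 0.32 ± 0.28 between transfer and culture (adjusted p = 0.432). The difference of 0.82 between immunised and cultured cells (adjusted p = 0.0449) was lost without 9 of the 12 arrays, left out in turn (adjusted p of 0.0519 to 0.116) and was 1.42 with the mean of all probes. All 4 Cd44 probes were higher in transfer than in naive cells, by 2.14 to 4.26. Alcam (CD166), the ligand of CD6, was above background on 1 naive array and was at −1.0, 0.10 and −0.98 in culture, −1.95, −1.69 and −0.89 in the transfer group and −1.0, −1.03 and −0.92 in the immunised group. Alcam rose at least 28.5-fold in culture (adjusted p = 2.41e-06) and was at least 15.4-fold and at least 22.2-fold above naive cells in the transfer and immunised groups. After normexp correction these log2 differences were 2.76, 2.05 and 2.46.

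F11r encodes JAM-A, a junctional adhesion molecule and ligand of LFA-1. It was above background on 0 naive arrays (−6.96, −6.90 and −7.49), and at −3.70, −2.80 and −2.13 in culture, 1.49, 2.55 and 2.09 in the transfer group and 2.99, 2.04 and 3.15 in the immunised group. The CNS groups overlapped each other and lay above culture. F11r rose at least 6.46-fold from naive to culture (adjusted p = 4.16e-05), by 4.92 ± 0.43 from culture to transfer (adjusted p = 3.16e-05), and was at least 314-fold higher in immunised than in naive cells. After normexp correction the log2 difference from naive cells was 1.24 in culture (adjusted p = 0.0183), 5.50 in transfer and 6.17 in immunised samples. Its product is found on macrophages, dendritic cells and endothelium, whose marker sums are given above. Jam2, which encodes JAM-B of endothelium, was faint, with means of −4.25, −5.05, −5.64 and −4.67 in naive, culture, transfer and immunised samples. It was at least 2.33-fold lower in transfer than in naive cells (adjusted p = 0.00218), a call lost after normexp correction (−0.34, adjusted p = 0.104). With the mean of its 3 probes the difference was 0.50 and not called (adjusted p = 0.539). The difference of −0.80 in culture (adjusted p = 0.0408) was lost without 7 of the 12 arrays (adjusted p of 0.0517 to 0.147) and after normexp correction (−0.31, adjusted p = 0.143).

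Between both CNS groups, the 4 genes called were Itgb7 (1.16 ± 0.21, adjusted p = 0.0166), Selplg (0.79 ± 0.14, adjusted p = 0.0166), Itga6 (0.67 ± 0.16, adjusted p = 0.047) and Itgad (at least 2.23-fold, adjusted p = 0.0331), all higher in the immunised group. After normexp correction Itgad lost its call (0.22, adjusted p = 0.449), and with the mean of all probes Itga6 did (0.43, adjusted p = 0.318). For each of the 4 genes the immunised and transfer arrays did not overlap, but the genes were picked by their calls, so this is no separate support. The call of Itgb7 was lost without transfer replicate 3 or immunised replicate 1 or 2 (adjusted p of 0.065 to 0.0683), that of Itgad without any 1 of 5 arrays (adjusted p of 0.0815 to 0.119) and that of Itga6 without any 1 of 11 arrays (adjusted p of 0.051 to 0.135). The number of members called fell from 4 to 0 without transfer replicate 3 or immunised replicate 1 or 2. It was 7 without culture replicate 3, where the number called over all genes rose from 600 to 1289. The summed level of T cell core markers was 231 to 332 in transfer and 338 to 524 in immunised samples. Of these 15 markers, 2 were called higher, 0 lower and 13 not called, where 1.84% of all genes were higher. The neutrophil, B cell and mast cell sums given above were also higher in the immunised group. What part such cells had in the 4 calls was not tested. Larger differences that were not called were those of Vcam1 (−2.45 ± 0.82, adjusted p = 0.133), Itga9 (−2.42 ± 0.88, adjusted p = 0.16), Itgae (2.04 ± 0.59, adjusted p = 0.0903) and Itgb3 (1.91 ± 0.75, adjusted p = 0.191).

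The genes that switch integrins on or tie them to the cytoskeleton moved both ways. Of 31 tested, 6 were higher, 8 lower and 17 not called in culture against naive cells, where 19.7% of all genes were higher and 20.4% lower. In transfer against culture 6 were higher, 5 lower and 20 not called, with 12.8% and 15.5% of all genes. Between both CNS groups 0 of the 31 were called, where 3.22% of all genes were called. In culture Rasgrp2, which activates the integrin switch Rap1, fell by 3.50 ± 0.31 and the adapter gene Skap2 rose by 3.01 ± 0.27. Tgfb1i1, a focal adhesion adapter gene, was at least 8.15-fold lower, with 2 of 3 culture arrays above background. Filip1l fell by 2.34 in culture and rose by 2.19 from culture to transfer. Parvb, a parvin gene, was at least 8.41-fold higher in transfer than in culture, and the T cell adapter gene Skap1 fell by 1.18 ± 0.26. Ptk2, the focal adhesion kinase gene, was at least 3.94-fold lower (adjusted p = 0.0371), a call lost without culture replicate 1 or 2 or transfer replicate 1 or 2 (adjusted p of 0.0671 to 0.125). Without culture replicate 3, 5 genes of this list were called between both CNS groups, 4 of them higher in the immunised group. Over all genes, the number called there rose from 600 to 1289 with that omission.

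Of 15 tested genes that build selectin ligands, 6 were higher, 1 lower and 8 not called in culture against naive cells, with 19.7% of all genes higher and 20.4% lower and a list median of 1.26 against −0.08 over all genes. In transfer against culture, 3 were higher, 4 lower and 8 not called, where 12.8% of all genes were higher and 15.5% lower. Fut7, the fucosyltransferase that completes the selectin-binding sugar, rose by 4.38 ± 0.59 in culture and fell by 2.90 ± 0.59 from culture to transfer. Fut4 was at least 5.03-fold higher in culture. St3gal6, a sialyltransferase gene, fell by 5.09 ± 0.30 in culture, rose by 3.50 ± 0.30 from culture to transfer and was the 1 gene of the list called between both CNS groups, 1.40 ± 0.30 higher in the immunised group. That last call was lost without any 1 naive or immunised array or transfer replicate 2 or 3 (adjusted p of 0.0516 to 0.133). Without culture replicate 3 the list had 4 genes called between both CNS groups, and the number called over all genes rose from 600 to 1289. Gcnt1, at 2.07 from culture to transfer, lost its call without culture replicate 1 or 3 or transfer replicate 2 or 3 (adjusted p of 0.0667 to 0.0777). Cd24a rose by 2.43 in culture, and its difference of −1.77 from culture to transfer was −1.11 without culture replicate 2 and lost its call without transfer replicate 2 or 3 (adjusted p = 0.0721 and 0.0563).

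Of 18 tested ligands of integrins, 8 were higher, 0 lower and 10 not called in culture against naive cells, where 19.7% of all genes were higher. In transfer against culture 8 were higher and 2 lower, with 12.8% and 15.5% of all genes. Against naive cells 12 of 18 were higher in transfer, with 21.1% of all genes, and 14 of 18 in immunised samples, with 20.6%. In culture, the laminin chain genes Lama5 and Lamc1 rose by 7.34 ± 0.45 and 5.16 ± 0.28, Spp1, the osteopontin gene, was at least 31.7-fold higher and the collagen gene Col4a2 at least 9.53-fold. From culture to transfer, the fibronectin gene Fn1 rose by 8.07 ± 0.49, Thbs1, the thrombospondin-1 gene, by 7.60 ± 0.61 and Spp1 by 4.22 ± 0.84, while Cdh1, which encodes E-cadherin, the ligand of CD103, was at least 73.4-fold higher. Between both CNS groups Lama5 was lower in the immunised group, by −4.12 ± 0.45. Cdh1 (−2.88 ± 0.65) and Lamc1 (1.31 ± 0.28) were called there too, calls lost without any 1 of 9 arrays for Cdh1 (adjusted p of 0.0503 to 0.125) and without any 1 of the 6 CNS arrays for Lamc1 (adjusted p of 0.0515 to 0.123). Fn1, Thbs1 and Spp1 are also made by macrophages, whose marker sum was higher over the same groups, and the part of these cells was not tested.

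Of 24 other contact receptors of T cells, 7 were higher, 6 lower and 11 not called in culture against naive cells, with 19.7% of all genes higher and 20.4% lower. In transfer against culture 10 were higher, 5 lower and 9 not called, with 12.8% and 15.5% of all genes. Crtam and Cd226, receptors of nectin-type ligands, were at least 10.3-fold and at least 10.9-fold lower in culture, with 2 of 3 culture arrays above background, and were at least 4.97-fold and at least 4.81-fold higher in transfer than in culture. Without culture replicate 3 these last differences moved from 2.79 to 1.80 and from 2.52 to 1.37 on the log2 scale, and that of Cd226 lost its call without any 1 transfer array (adjusted p of 0.0548 to 0.0964). Slamf6 fell by 3.42 ± 0.70 in culture. The tetraspanin gene Cd63 rose by 3.53 ± 0.49 in culture and by a further 4.14 ± 0.49 from culture to transfer, and Cd9 rose by 3.29 ± 0.51 in the latter step. Cd6, the receptor of ALCAM, was 1.65 ± 0.36 and Cd37 0.64 ± 0.14 higher in the immunised than in the transfer group, calls that were lost without any 1 of 8 arrays for Cd6 (adjusted p of 0.0518 to 0.134) and of 9 for Cd37 (adjusted p of 0.0535 to 0.154). Without culture replicate 3, 7 genes of this list were called in that comparison, and the number called over all genes rose from 600 to 1289.

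The 4 genes that were not tested stayed near background. Itga8 and Itgb6 were well above background on 0 of 12 arrays. Itga2 was above it on 1 naive, 1 culture and 1 immunised array, and Itgb8 on 1 naive array and on culture replicate 3, at −3.42 against −8.14 and −8.05 on the other culture arrays.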

How the data were processed

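Total RNA was labelled with Cy3 and measured on 12 one-colour Agilent arrays, per the labels' protocols. The deposited intensity values came from Agilent Feature Extraction (version 10.7.3.1; GE1_107_Sep09 was the protocol, per the file headers) and were not normalized between arrays. Probe positions are in mm9, per the file headers. The deposited series matrix holds intensity values whose normalization is not stated and served as an alternative.

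Control and outlier spots were left out, repeated spots were averaged, and log2 processed signals were centred on each array's 75th percentile. The 60-base probe with the highest mean stood for a gene, and a gene was tested where some group had it well above background on each of its 3 arrays. All 12 arrays entered 1 limma 3.58.1 model in R 4.3.3 (8 residual and 2.48 prior degrees of freedom), with two-sided p-values and Benjamini-Hochberg adjustment over 18645 genes, called under 0.05. Where a group's probe was not above background on all 3 arrays, a called change is "at least" the fold against the lowest signal well above background, or the probe's own where that was higher. Lists of integrin regulators, selectin ligand synthesis, integrin ligands, contact receptors and markers of other cells (T, macrophage, microglia, neutrophil, dendritic, B, endothelial, platelet, mast, CD8 and NK, and neural cells) were described by counts. Named members were called with at least 2-fold change, except Selplg, chosen after its values were seen as 1 of the 4 calls between the CNS groups, and at most 4 genes of a list were named per comparison, by size of change. Members and lists were chosen with earlier results of these data known. The procedure was tested on simulated data. Protein sequences were not used here, and exon and UTR annotation of probes was not analysed here. The series text speaks of 3 independent experiments, but no label ties a sample to its animals, so p-values measure the spread between these samples, which may be partly technical. The number of arrays limits the precision.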

Additional observations from a re-analysis of the deposited data

How the results depend on the processing

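Of 105 called differences, 92 kept their call after normexp background correction, 96 with median scaling, 99 with quantile normalization, 89 with no filter on dim probes, 94 with the mean of all probes and 99 with the series matrix values. With the mean of all probes, the sign reversed and the difference was called for Itgam against naive cells. It was 1.18 in transfer (adjusted p = 0.00294) and 1.74 in immunised samples (adjusted p = 0.000278). The sign also reversed, without a call, for Jam2 and Mcam. Against naive cells Jam2 was at 0.20 in culture (adjusted p = 0.82) and 0.50 in transfer (adjusted p = 0.539), and Mcam at −0.72 in transfer against culture (adjusted p = 0.13). The brightest probe without a dinucleotide run, an alternative chosen after seeing the data, reversed the sign of Itgam (0.69, 4.50 and 5.18 in culture, transfer and immunised samples against naive) and Mcam (−3.48 against culture and −0.49 against naive in transfer, fitted values of a probe not above background in transfer and naive samples). Of these, 0.69 for Itgam (adjusted p = 0.195) and −0.49 for Mcam (adjusted p = 0.451) were not called. The cause was not tested.

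With genes well above background on all 12 arrays, 13, 10, 16, 13 and 10 members were called for culture against naive, transfer against culture, transfer against naive, immunised against naive and immunised against culture, because fewer members were tested. Over all genes, 5961, 4067, 6910, 6964 and 4366 were called in the same order. Immunised against transfer had 2 members with median scaling and 2 with no filter, where 452 and 372 genes of all were called. With the 12-array filter it had 3 members and 367 genes of all, against 4 and 600 in the main setting. Leaving out 1 array gave 0 to 7 members and 194 to 1289 genes of all in that comparison.

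Samples with the same replicate number share a slide, and their deviations from the group means had correlations of −0.20 to 0.20. Those with different numbers had −0.31 to 0.33. With 3 arrays a group, these overlapping ranges showed no pairing by number but cannot exclude it. With the replicate number as a block, 18, 16, 4, 26, 22 and 18 members were called (culture against naive, transfer against culture, immunised against transfer, then transfer and immunised against naive and immunised against culture). Over all genes, 7180, 5078, 559, 8681, 8892 and 5618 were called in the same order. The calls of members lost were Itgam and Jam2 in culture, Itga1 and Itgb4 in transfer against culture, and Itga6 between the CNS groups. Within slides, 19 of 20 called members kept their sign on all 3 slides for culture against naive, and all called members did in the other comparisons. Where the groups compared did not overlap, as for most of these calls, that sign was fixed in advance, so this was no separate check.

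Signals near background limit fold changes: normexp correction moved 42 of the 105 differences, in 14 genes, by more than 1.5 times, and the mean of all probes 15 in 7 genes.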
